A study of Mus musculus with 12 samples.

Results

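The genes described here encode the proteins that switch integrins to their adhesive state and the actin cytoskeleton to which integrins connect. They are 59 of the 41457 genes in the deposited tables, taken by gene symbol from a list put together by function, with earlier results of these data known. Their roles include 12 genes of integrin activation, 11 genes of Arp2/3 branching, 6 actins and monomer-binding proteins, 6 genes of filament elongation and bundling, 4 adhesion-site proteins, 3 ERM membrane linkers and 7 myosins. RNA-Seq was performed on splenic Treg, sorted as RFP+ CD4+ T cells, in 12 libraries from 4 groups with 3 biological replicates each. CD18wt Treg came from littermate controls that carry Foxp3Cre and an intact Itgb2 gene, and CD18Foxp3 Treg came from mice in which Foxp3Cre excised a floxed exon of Itgb2, which encodes the integrin chain CD18. Cre was therefore active in the Treg of both genotypes, and its expression under Foxp3 confines the deletion to cells that express or have expressed that gene. The mice were age and sex matched, and their age was not given in the labels. Treg of each genotype were kept overnight in IL-2 (unstimulated), or in IL-2 with agonistic antibodies to CD3 and CD28 (stimulated).

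Integrins on resting T cells are held in a bent form with low affinity. T cell receptor and chemokine signals activate the GTPase Rap1, which brings talin (Tln1) and kindlin-3 (Fermt3) to the integrin tail, so that the extracellular part unfolds and binds ligand. The activated integrin is then coupled to actin filaments, which are nucleated by the Arp2/3 complex and formins, supplied with monomers by profilin and thymosins, cut by cofilin, and pulled by myosins. In Treg, LFA-1, the integrin made of CD18 and the chain encoded by Itgal, carries the contact with dendritic cells.

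Itgb2, the targeted gene, was measured first as a check of the labels. Its level, in TPM (transcript counts corrected for gene length and scaled to the same total in each library), was 465, 431 and 387 in unstimulated CD18wt Treg and 229, 257 and 234 in unstimulated CD18Foxp3 Treg. In stimulated Treg it was 331, 329 and 330 in CD18wt libraries and 131, 202 and 183 in CD18Foxp3 libraries, so that the genotypes did not overlap in either culture. The reads are summed over all exons, and the deleted exon is not resolved. Depth ranged from 10665174 to 19005482 exon reads per library. In 1 stimulated CD18Foxp3 library (replicate 1), 13 of the 59 genes were more than 1.5-fold below the mean of the other replicates, against 18.5% of 11234 genes tested, and in stimulated CD18wt replicate 2 this held for 5 of the 59 and 17.3% of all. Calls of a change on stimulation, defined below, are given with and without these libraries where they differ. Shifts of genes without a call are given for some. Markers of Treg summed to 1336 to 1662 TPM in unstimulated and 2214 to 3678 TPM in stimulated libraries, and 7 markers of T cell receptor activation summed to 645 to 884 TPM and 3540 to 4759 TPM. The Treg markers moved apart on stimulation. Il2ra was at 2.27 and 3.13 (log2 fold change, CD18wt and CD18Foxp3), Cd4 at -1.15 and -1.25, and Cd3e at -0.87 and -0.92. B cell markers (6 genes) summed to 27.3 to 39.2 TPM in unstimulated and 9.49 to 21.5 TPM in stimulated libraries, erythroid markers (6 genes) to 2.47 to 56.5 TPM and 0.234 to 3.41 TPM, and platelet markers (6 genes) to 16.9 to 38.6 TPM and 4.90 to 11.6 TPM, with Pf4, Ppbp and Gp9 at 0 reads in 3 of the 4 groups and Gp1bb in all 4. Myeloid markers (8 genes) summed to 148 to 210 TPM and 121 to 194 TPM, and CD8 and NK markers (6 genes) to 75.2 to 139 TPM and 93.6 to 148 TPM. The part of such cells in the results was not tested. In bulk RNA, fewer cells of a type and less RNA per cell cannot be told apart.

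The cytoskeleton genes were among the most abundant transcripts of the Treg. Together the 59 genes took 4.36% ± 0.41 (SD, n = 3) of all TPM in unstimulated CD18wt Treg and 4.56% ± 0.19 (SD, n = 3) in unstimulated CD18Foxp3 Treg. After stimulation their share was 3.53% ± 0.16 (SD, n = 3) and 3.64% ± 0.12 (SD, n = 3). Actb, the cytoplasmic β-actin gene, ranked 11 among all genes by mean level, with 6923 TPM over the 12 libraries, and Tmsb4x, encoding the monomer-sequestering thymosin β4, ranked 12 with 6849 TPM. At the other end stood Vcl, encoding the adhesion-site protein vinculin, with a mean of 2.58 TPM, and Myo6, encoding an unconventional myosin that moves toward the pointed end of filaments, with 8.74 TPM. The 6 actins and monomer-binding genes alone gave 26476 ± 3665 TPM (SD, n = 3) in unstimulated CD18wt Treg, against 5883 ± 305 TPM (SD, n = 3) for the 11 genes of Arp2/3 branching and 184 ± 9.0 TPM (SD, n = 3) for the 4 adhesion-site genes.

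Stimulation lowered about as many of these genes as it left without a call. Counts were compared with the edgeR quasi-likelihood test, and a gene was called at a fold change of at least 1.5 with an adjusted p of at most 0.01 over all genes. In CD18wt Treg, 29 of the 59 genes were called lower and 1 higher, where 14.9% of 11930 genes tested were called lower and 18.7% higher. In CD18Foxp3 Treg, 29 were called lower and 2 higher, where 17.6% of 12019 genes were called lower and 20.9% higher. At an adjusted p of at most 0.05 with any fold, 40 were lower and 3 higher in CD18wt Treg (22.8% and 26.5% of all genes), and 45 were lower and 4 higher in CD18Foxp3 Treg (26.8% and 29.7% of all genes). The median log2 fold change of the 59 genes was -0.63 in CD18wt and -0.67 in CD18Foxp3 Treg, and that of all genes tested was 0.02 and 0.01. All 59 genes passed the filter on low counts in every comparison. The calls depend in part on scaling: on log2(TPM + 1) the median of all genes shifted by 0.36 in CD18wt and 0.31 in CD18Foxp3 Treg on stimulation, and limma then called 15 of the 59 lower and 4 higher in CD18wt and 18 lower and 4 higher in CD18Foxp3 Treg. Of all genes, 3589 of 4447 calls were then higher in CD18wt Treg, against 2234 of 4013 on counts, and 3783 of 4984 in CD18Foxp3 Treg, against 2516 of 4636. The 15 genes lower on both scales in both genotypes were Rasgrp2, Cyth1, Skap1, Dock2, Dock11, Rac2, Rhoh, Coro1a, Tmsb4x, Tmsb10, Evl, Lsp1, Myl12b, Myo1f and Myo6. Rassf5, Stk4 and Was were lower on both scales in CD18Foxp3 Treg only. All other genes called lower on counts were not called on log2(TPM + 1), Tln1, Wipf1 and Flna among them. The sign turned from lower on counts to higher on TPM for 15 of the 59 genes in CD18wt and 13 in CD18Foxp3 Treg, none of which was called on either scale. On log2(TPM + 1), 52 of the 59 genes still lay below the median of all genes in each genotype. Without stimulated CD18wt replicate 2, 31 of the 59 were called lower and 1 higher in CD18wt Treg, and without stimulated CD18Foxp3 replicate 1, 30 were called lower and 1 higher in CD18Foxp3 Treg. Leaving out each library in turn kept 28 of the 30 calls in CD18wt and 27 of the 31 calls in CD18Foxp3 Treg in all 6 fits, and the genes that did not keep theirs are named with the library below.

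**Figure D1:**
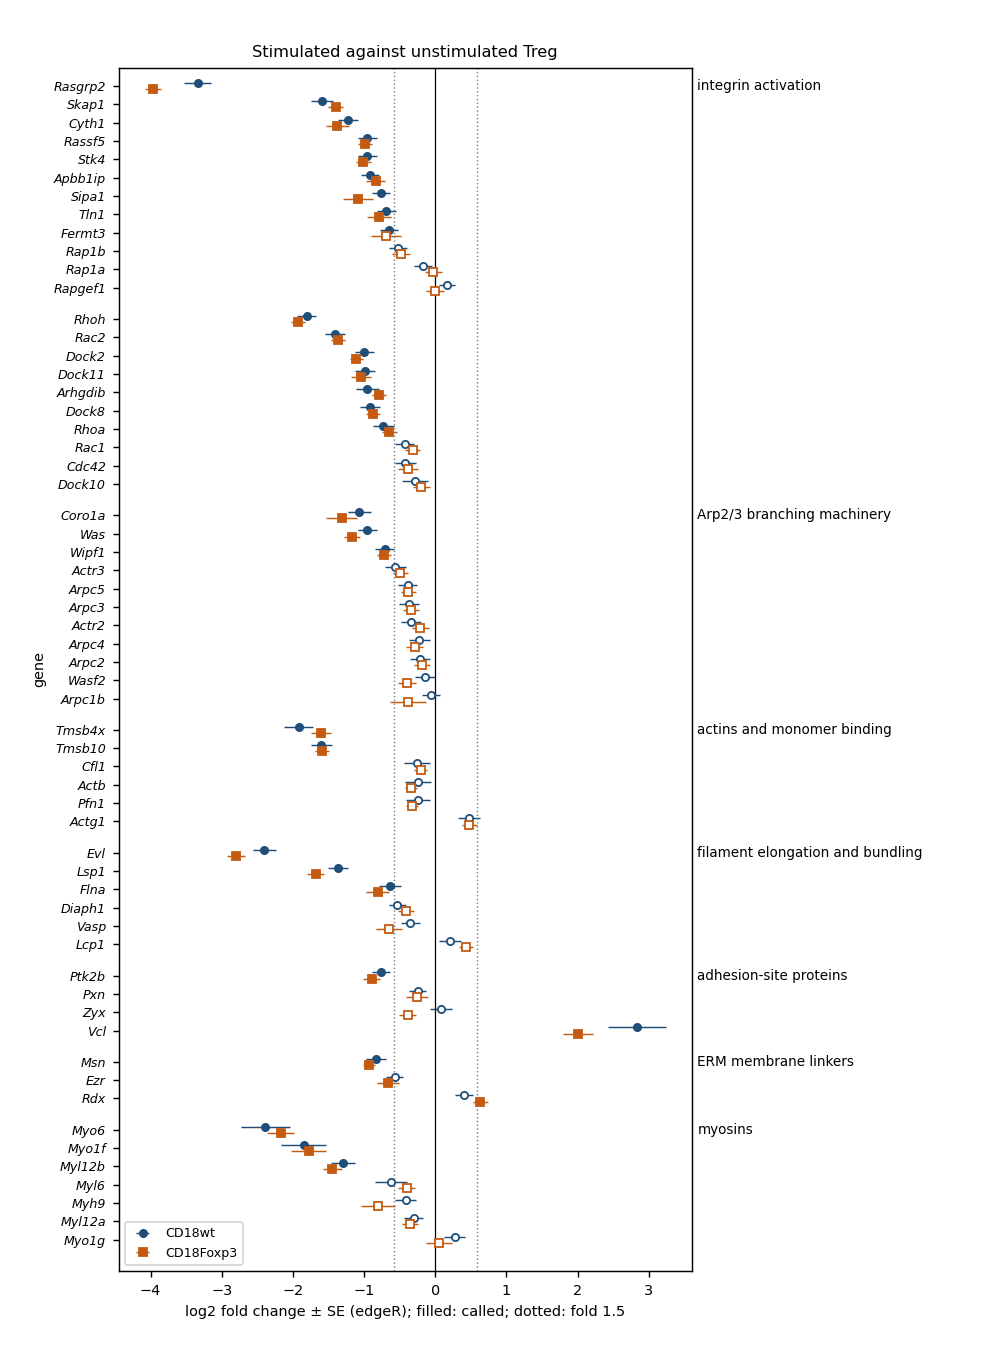
Change of the 59 genes on stimulation, as log2 fold change ± SE from edgeR, in CD18wt (circles) and CD18Foxp3 Treg (squares), grouped by role with labels for 7 of the 8 groups, with filled symbols for called genes and dotted lines at a fold change of 1.5. Most symbols lie left of 0, with Rasgrp2 at -3.34 and -3.97, and Vcl stands alone on the right at 2.83 and 2.00.

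Among the genes of integrin activation, 9 of 12 were called lower in CD18wt and 8 of 12 in CD18Foxp3 Treg, and none higher. On log2(TPM + 1), only Rasgrp2, Cyth1 and Skap1 of these were called lower in CD18wt Treg. In CD18Foxp3 Treg, Rassf5 and Stk4 were called as well. The largest fall belonged to Rasgrp2 (ENSMUSG00000032946, GRCm38 chromosome 19, 6399340 to 6415216), which encodes CalDAG-GEFI, the calcium-regulated exchange factor that loads Rap1 with GTP. Rasgrp2 stood at 27.0, 24.4 and 26.4 TPM in unstimulated CD18wt libraries and at 4.0, 2.25 and 4.07 TPM after stimulation. In CD18Foxp3 libraries it stood at 34.8, 33.4 and 35.8 TPM and, after stimulation, at 2.57, 3.01 and 2.98 TPM. The cultures were far apart in both genotypes, and the log2 fold change was -3.34 (SE 0.18, edgeR adjusted p = 8.53e-08) in CD18wt and -3.97 (SE 0.12, edgeR adjusted p = 3.16e-07) in CD18Foxp3 Treg.

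Downstream of Rap1, the adaptor genes fell by smaller amounts. Skap1, encoding an adaptor that links the T cell receptor pathway to Rap1 effectors, changed by -1.59 and -1.40 (log2, CD18wt and CD18Foxp3), and Cyth1, encoding cytohesin-1, which binds the CD18 tail, by -1.22 and -1.38. Rassf5 and Stk4, encoding the Rap1 effector RAPL and its partner kinase MST1, changed by -0.96 and -0.99 and by -0.96 and -1.01, and Apbb1ip, encoding the Rap1 effector RIAM, by -0.92 and -0.84. Sipa1, whose product inactivates Rap1, was also called lower, at -0.76 and -1.08. The integrin-tail binders were called less uniformly. Tln1 changed by -0.69 and -0.79 and was called in both genotypes, although its call in CD18Foxp3 Treg was lost without any 1 of the 3 unstimulated libraries (edgeR adjusted p = 0.0121 to 0.0136). Fermt3 was called only in CD18wt Treg (-0.65, SE 0.13), where without unstimulated replicate 3 it was -0.58 and under the fold threshold; in CD18Foxp3 Treg it was -0.70 (SE 0.21, edgeR adjusted p = 0.0201), without stimulated replicate 1 it was -0.48, and without stimulated replicate 3 it was called at -0.93. The GTPases themselves were not called: Rap1b, the most abundant gene of the role at 436 to 509 TPM on group average, was at -0.53 and -0.48, and Rap1a at -0.17 and -0.03. Without stimulated CD18Foxp3 replicate 1, Rap1b was called at -0.63 (edgeR adjusted p = 2.26e-05). Rapgef1, encoding a further exchange factor for Rap1, was at 0.16 in CD18wt Treg and within 0.01 of 0 in CD18Foxp3 Treg. Without stimulated CD18Foxp3 replicate 1, Rapgef1 was at 0.08 in CD18Foxp3 Treg.

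Rhoh, an atypical GTPase of lymphocytes (ENSMUSG00000029204, chromosome 5, 65861213 to 65896700), was at 101, 97.9 and 87.2 TPM in unstimulated and 41.7, 32.4 and 33.8 TPM in stimulated CD18wt Treg. In CD18Foxp3 Treg it was at 97.2, 102 and 97.1 TPM and then at 32.7, 34.6 and 33.1 TPM. All stimulated libraries lay below all unstimulated ones, with log2 fold changes of -1.81 (SE 0.13) and -1.93 (SE 0.10). Rac2, the Rac GTPase of blood cells, went from 1044, 1029 and 958 TPM to 546, 487 and 477 TPM in CD18wt Treg and from 1022, 1026 and 1116 TPM to 500, 522 and 559 TPM in CD18Foxp3 Treg. Its widely expressed relative Rac1 was not called, at -0.43 and -0.32, and 51.4% of its exonic bases lie opposite exons of Daglb, a gene at 3.14 to 7.85 TPM. The exchange factors of the DOCK family differed likewise, with Dock2, Dock11 and Dock8 called lower at -1.11 to -0.88 over both genotypes and Dock10 at -0.28 and -0.20 not called. Arhgdib fell from 1598 ± 178 to 1089 ± 105 TPM (SD, n = 3) in CD18wt and from 1664 ± 73.3 to 1234 ± 60.7 TPM (SD, n = 3) in CD18Foxp3 Treg. Rhoa was called at -0.73 and -0.64, and Cdc42, which drives filopodia, was not called at -0.42 and -0.39. Of the Rhoa and Rac1 reads, 85.6% and 87.3% were placed uniquely. With unique reads alone Rhoa was at -0.69 and -0.64, and Rac1 at -0.40 and -0.28.

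Of the 11 genes of the branching machinery, 3 were called lower in each genotype and none higher. The 3 genes called lower in both genotypes were Coro1a, encoding coronin-1A, which binds filaments and the Arp2/3 complex; Was, encoding the Arp2/3 activator WASP; and Wipf1, encoding the WASP partner WIP. Coro1a was at 1891, 2155 and 2449 TPM in unstimulated CD18wt Treg and at 1447, 1307 and 1352 TPM when stimulated. In CD18Foxp3 Treg it was at 2240, 2315 and 2505 TPM and, when stimulated, at 743, 1442 and 1485 TPM, with replicate 1 far below the others. Its log2 fold change was -1.07 (SE 0.16) and -1.31 (SE 0.22), and without CD18Foxp3 stimulated replicate 1 it remained called at -1.08. Wasf2, encoding the Arp2/3 activator WAVE2, was not called, at -0.14 and -0.40. None of the 7 measured subunits of the complex (Actr2, Actr3, Arpc1b, Arpc2, Arpc3, Arpc4 and Arpc5) was called in either genotype. Their log2 fold changes ran from -0.56 for Actr3 to -0.06 for Arpc1b in CD18wt Treg and from -0.49 for Actr3 to -0.19 for Arpc2 in CD18Foxp3 Treg. In CD18Foxp3 Treg, Arpc1b was at -0.38, and at -0.12 without stimulated replicate 1. On log2(TPM + 1) the sign turned to higher for 6 of the 7 subunits in CD18wt Treg (all but Actr3), with values of up to 0.34 for Arpc1b, and for 4 in CD18Foxp3 Treg (Actr2, Arpc2, Arpc3 and Arpc4), with values of up to 0.17 for Arpc2. Exons of Pdap1 lie opposite 18.2% of the exonic bases of Arpc1b, and Pdap1 rose on stimulation (log2 fold change 1.05 and 0.92). Of the Arpc4 reads, 85.8% were placed uniquely, and 12.2% of its exonic bases are shared with Ttll3. Actr3 was called without CD18Foxp3 stimulated replicate 1 (-0.59, edgeR adjusted p = 8.32e-06) and without CD18wt stimulated replicate 2 (-0.66, edgeR adjusted p = 0.00444).

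The actins and their monomer-binding partners held the highest levels and moved in different directions. Tmsb4x (ENSMUSG00000049775, chromosome X, 167207093 to 167209315) stood at 9165, 7921 and 12536 TPM in unstimulated CD18wt Treg and at 3875, 3035 and 3564 TPM after stimulation. The CD18Foxp3 libraries stood at 9514, 9637 and 10437 TPM and then at 4989, 3612 and 3902 TPM. The lowest unstimulated library was above the highest stimulated library in both genotypes, and the log2 fold change was -1.92 (SE 0.20, edgeR adjusted p = 7.03e-06) and -1.60 (SE 0.14, edgeR adjusted p = 2.01e-05). A similar fall was measured for Tmsb10, its close relative (ENSMUSG00000079523, chromosome 6, 72957347 to 72958748). In CD18wt Treg, Tmsb10 was at 3718, 3967 and 4113 TPM and, with stimulation, at 1751, 1711 and 1680 TPM, and in CD18Foxp3 Treg at 3906, 4306 and 4431 TPM and at 1783, 1748 and 1859 TPM. Only 44.8% of the Tmsb10 reads were placed uniquely, so its level is uncertain, although with unique reads alone the change was -1.63 in both genotypes.

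The 2 cytoplasmic actin genes did not move together. Actg1, encoding γ-actin (ENSMUSG00000062825, chromosome 11, 120345690 to 120348542), was at 2338, 2325 and 2417 TPM in unstimulated and 4451, 4542 and 3952 TPM in stimulated CD18wt Treg. In CD18Foxp3 libraries it was at 2645, 2610 and 3068 TPM and then at 4649, 4666 and 5598 TPM, so that all stimulated libraries were higher. On counts its log2 fold change was 0.47 (SE 0.16, edgeR adjusted p = 0.0225) and 0.48 (SE 0.11, edgeR adjusted p = 0.00488), under the 1.5-fold threshold, and on log2(TPM + 1) it was called at 0.87 and 0.84. Without stimulated CD18wt replicate 2, it was 0.34 on counts in CD18wt Treg (edgeR adjusted p = 0.0843). Actb was at 5911, 5958 and 7409 TPM in unstimulated and 7089, 7831 and 6560 TPM in stimulated CD18wt Treg. In CD18Foxp3 Treg it was at 7015, 7037 and 6924 TPM and then at 7040, 6996 and 7309 TPM, and the ranges overlapped in both genotypes. It was not called at -0.24 and -0.34, and the sign turned on log2(TPM + 1), with 0.16 and 0.02. Pfn1, encoding profilin, which delivers monomers to growing ends, and Cfl1, encoding the filament-severing cofilin, were not called either, at -0.24 and -0.33 and at -0.26 and -0.20, and on log2(TPM + 1) they were at 0.14 and 0.04 and at 0.17 and 0.16.

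**Figure D2:**
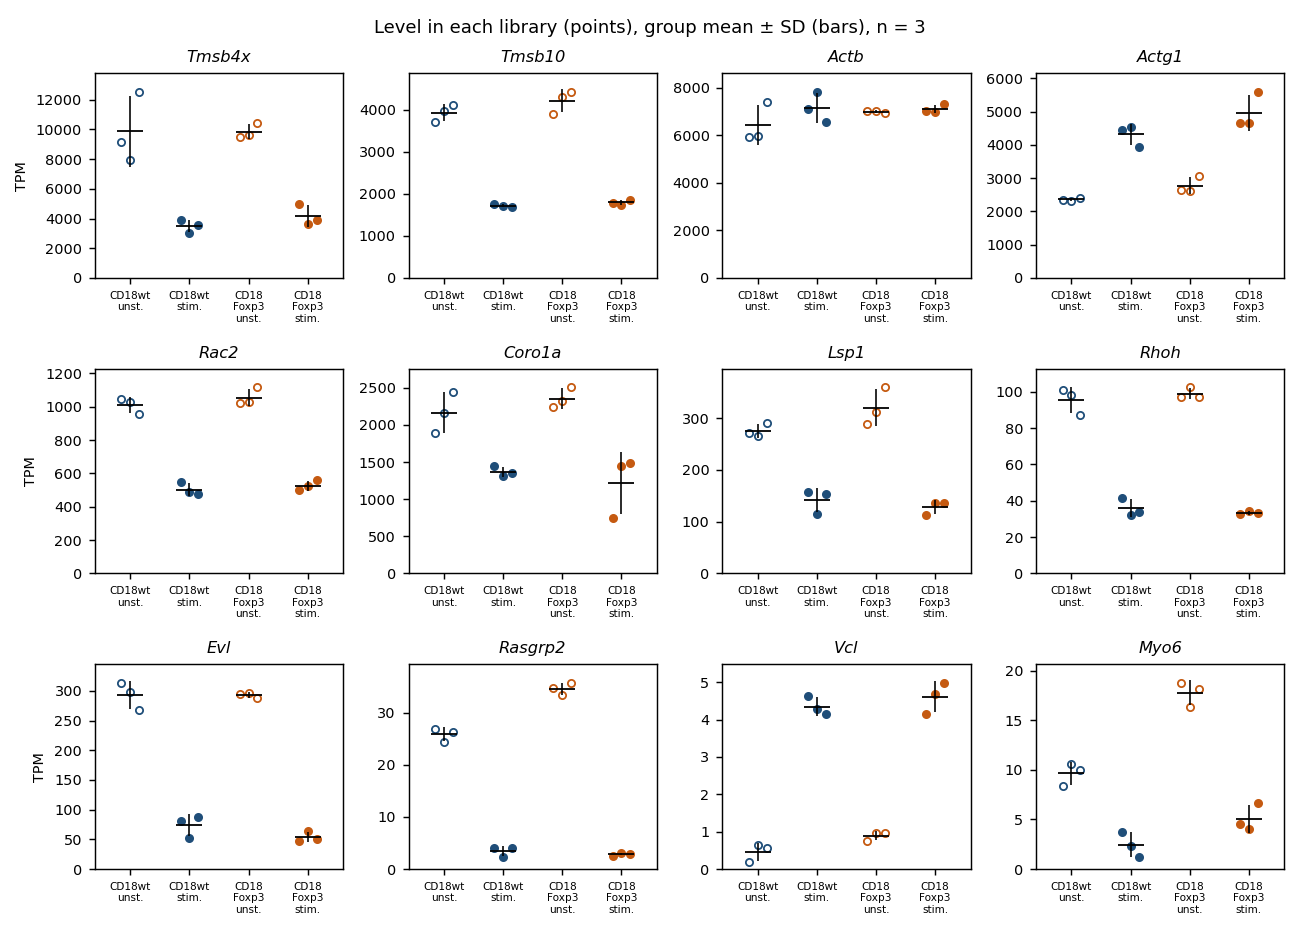
TPM of 12 of the genes in each library (points) with the mean ± SD of each group of 3 (bars), on linear axes that start at 0, for CD18wt (blue) and CD18Foxp3 Treg (orange), unstimulated (open) and stimulated (filled). Tmsb4x, Tmsb10, Rac2, Coro1a, Lsp1, Rhoh, Evl, Rasgrp2 and Myo6 were lower in every stimulated library, Actg1 and Vcl were higher, and Actb overlapped between cultures in both genotypes.

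In the group of elongation and bundling, Evl, encoding an Ena/VASP protein that extends filaments (ENSMUSG00000021262, chromosome 12, 108554720 to 108688516), fell furthest. It was at 313, 297 and 268 TPM in unstimulated and 81.6, 52.9 and 87.2 TPM in stimulated CD18wt Treg. The CD18Foxp3 libraries were at 295, 296 and 288 TPM and then at 47.9, 63.5 and 51.1 TPM. The log2 fold change was -2.40 (SE 0.16, edgeR adjusted p = 2.06e-07) and -2.80 (SE 0.13, edgeR adjusted p = 1.19e-06). Lsp1, encoding an actin-binding protein of leukocytes, went from 271, 265 and 290 TPM to 157, 116 and 154 TPM in CD18wt Treg and from 288, 313 and 360 TPM to 113, 137 and 137 TPM in CD18Foxp3 Treg. Vasp, the Ena/VASP relative of Evl, was not called at -0.35 and -0.65, and in CD18Foxp3 Treg it was -0.45 without stimulated replicate 1 and called at -0.78 without stimulated replicate 3. Flna, encoding the crosslinker filamin A, was called at -0.64 and -0.81. That call was lost in CD18wt Treg without unstimulated replicate 2 (-0.58) and without stimulated replicate 1 or 3 (-0.68 and -0.55), and in CD18Foxp3 Treg without unstimulated replicate 3 (-0.75, edgeR adjusted p = 0.0124). Lcp1, encoding L-plastin, which bundles filaments, was not called on counts, at 0.20 and 0.43, and was called higher on log2(TPM + 1), at 0.60 and 0.79. Without stimulated CD18wt replicate 2, Lcp1 was at 0.05 on counts in CD18wt Treg. It stood at 448, 443 and 477 TPM in unstimulated and 690, 745 and 637 TPM in stimulated CD18wt Treg. Diaph1, encoding the formin mDia1, was not called at -0.53 and -0.41.

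Vcl (ENSMUSG00000021823, chromosome 14, 20929398 to 21033676) was the only gene called higher in both genotypes. Vinculin joins talin to actin filaments at sites under tension. The gene held 10, 35 and 19 exon reads in the unstimulated CD18wt libraries and 146, 201 and 175 in the stimulated ones, or 0.193, 0.634 and 0.571 TPM and 4.62, 4.28 and 4.14 TPM. The CD18Foxp3 libraries held 44, 46 and 49 reads and then 216, 213 and 209 reads, or 0.753, 0.974 and 0.962 TPM and 4.16, 4.68 and 4.98 TPM. The log2 fold change was 2.83 (SE 0.40, edgeR adjusted p = 7.8e-05) in CD18wt and 2.00 (SE 0.21, edgeR adjusted p = 5.41e-05) in CD18Foxp3 Treg. Of the Vcl reads, 83.9% were placed uniquely, and with these alone the change was 2.64 and 1.84. Exons of Ap3m1, an antisense neighbour, cover 25.5% of the exonic bases of Vcl, and the kit was not stated to keep strand. Ap3m1 also rose, from 10.9 to 13.6 TPM to 21.1 to 30.3 TPM in CD18wt Treg (log2 fold change 0.70) and from 12.6 to 13.4 TPM to 28.0 to 40.4 TPM in CD18Foxp3 Treg (0.94), and reads from the shared bases cannot be told apart. The other adhesion-site genes behaved differently. Ptk2b, encoding the adhesion kinase Pyk2, was called lower at -0.76 and -0.89 with 98.4, 98.3 and 96.8 TPM in unstimulated and 72.2, 79.2 and 76.7 TPM in stimulated CD18wt Treg. Zyx, encoding zyxin, was at 0.08 and -0.39 and Pxn, encoding paxillin, at -0.25 and -0.26, and neither was called. Without stimulated CD18wt replicate 2, Zyx was at -0.09 in CD18wt Treg.

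The promoters of Vcl and of Actg1, which was called higher on TPM only, are shown because both hold a CArG box, and serum response factor, with its actin-sensing coactivators, is known to act through this box at genes of the cytoskeleton. The box was searched as CC, then 6 letters that are each A or T, then GG, a pattern that reads the same on both strands, in RefSeq promoter windows of GRCm38.p6. It was present in 4 of the 50 genes with a window (8.0%: Actg1, Arpc4, Myl6 and Vcl) and in 488 of 27025 genes (1.81%). The 9 genes without a window were not searched. These were Actb, Diaph1, Lsp1, Ptk2b, Pxn, Rac1, Rac2, Rap1a and Skap1. Below are the sequences upstream of Vcl (chr14:20929148-20929397, plus strand) and Actg1 (chr11:120348543-120348745, minus strand), each ending where the gene begins in the gene table, with the CArG box in capitals.
Vcl: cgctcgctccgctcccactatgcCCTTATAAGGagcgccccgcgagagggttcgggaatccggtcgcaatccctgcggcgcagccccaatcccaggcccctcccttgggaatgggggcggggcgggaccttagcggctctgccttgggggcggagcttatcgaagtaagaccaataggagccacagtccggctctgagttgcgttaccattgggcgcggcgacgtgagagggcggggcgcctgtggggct
Actg1: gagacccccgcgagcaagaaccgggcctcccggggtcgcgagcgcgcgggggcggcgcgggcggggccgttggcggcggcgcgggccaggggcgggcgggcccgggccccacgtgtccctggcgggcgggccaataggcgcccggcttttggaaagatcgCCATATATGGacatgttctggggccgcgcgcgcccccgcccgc
The box begins 227 bases before the end of the window in Vcl and 43 bases before it in Actg1. A match describes the letters and not a bound site, and the other genes with the box, Arpc4 (-0.22 and -0.29) and Myl6 (-0.63 and -0.40), were not called. Rdx, called higher in CD18Foxp3 Treg, has no box in its window. Srf itself was called higher in CD18wt Treg (0.66, edgeR adjusted p = 0.00164) but not in CD18Foxp3 Treg (0.24, edgeR adjusted p = 0.234), and its coactivator gene Mkl1 was called lower in both genotypes (-0.96 and -1.07). Whether serum response factor acted on any of these genes was not tested.

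The ERM genes, whose products tie actin to the plasma membrane, moved in opposite directions. Msn, encoding moesin and the most abundant of them, was at 607, 587 and 627 TPM in unstimulated and 483, 443 and 428 TPM in stimulated CD18wt Treg and was called lower at -0.83 and -0.93. Rdx, encoding radixin, was at 102, 95.9 and 109 TPM in unstimulated and 178, 161 and 198 TPM in stimulated CD18wt Treg, and in CD18Foxp3 Treg at 93.3, 96.8 and 98.4 TPM and then 205, 185 and 184 TPM. All stimulated libraries were higher, and the log2 fold change was 0.40 (SE 0.13, edgeR adjusted p = 0.0210) in CD18wt and 0.63 (SE 0.11, edgeR adjusted p = 0.00086) in CD18Foxp3 Treg, where it was called. Without CD18Foxp3 stimulated replicate 1 it was 0.54 and under the fold threshold, and on log2(TPM + 1) it was called in both genotypes. Ezr, encoding ezrin, was at -0.57 in CD18wt Treg, not called, and at -0.67 in CD18Foxp3 Treg, where the call was lost when any 1 of 5 libraries was left out (all but stimulated replicate 3). In CD18wt Treg it was called without stimulated replicate 2 or 3 or unstimulated replicate 1, at -0.59 to -0.62.

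Of the 7 myosin genes, 3 were called lower in both genotypes. Myo1f, encoding a class I myosin of leukocytes (ENSMUSG00000024300, chromosome 17, 33555707 to 33607764), was at 41.0, 28.8 and 34.2 TPM in unstimulated and 20.3, 7.47 and 11.2 TPM in stimulated CD18wt Treg, with log2 fold changes of -1.85 (SE 0.31) and -1.78 (SE 0.25). Myl12b, encoding a regulatory light chain, was at -1.29 and -1.44, but only 40.3% of its reads were placed uniquely, and 52.9% of those of its neighbour Myl12a, which was not called at -0.30 and -0.35. Myo6 (ENSMUSG00000033577, chromosome 9, 80165031 to 80311729) was at 8.34, 10.6 and 9.97 TPM in unstimulated and 3.74, 2.35 and 1.25 TPM in stimulated CD18wt Treg. In CD18Foxp3 Treg it was at 18.8, 16.3 and 18.2 TPM and then at 4.55, 4.02 and 6.69 TPM. The change on stimulation was -2.39 (SE 0.34) and -2.17 (SE 0.19). Myh9, the heavy chain of nonmuscle myosin IIA, was at -0.42 and -0.81 (edgeR adjusted p = 0.0169 in CD18Foxp3 Treg, under the 0.05 but not the 0.01 threshold), and it stood at 185 TPM in CD18Foxp3 stimulated replicate 1 against 414 and 381 TPM in the others, without which the change was -0.55. Myl6, the essential light chain and the most abundant myosin gene, ranged from 459 to 788 TPM in unstimulated and 443 to 545 TPM in stimulated CD18wt Treg and was not called. Myo1g, the relative of Myo1f, was at 0.27 and 0.06.

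Within several families the members moved apart. The ratio of their TPM does not depend on how the libraries are scaled. The families were chosen with the changes known, so the ratios are given as a description without a test. The share of other gene pairs that would separate in this way was not counted. The log2 ratio of Actg1 to Actb ran from -1.62 to -1.17 in the 6 unstimulated libraries and from -0.79 to -0.38 in the 6 stimulated libraries. That of Rac1 to Rac2 ran from -2.37 to -2.19 and then from -1.41 to -1.12, and that of Rdx to Msn from -2.75 to -2.53 and then from -1.46 to -0.99. Vasp stood above Evl by 0.47 to 0.72 on the log2 scale in unstimulated and by 2.26 to 3.15 in stimulated libraries, and Myo1g above Myo1f by 0.81 to 1.53 and by 2.68 to 3.57. None of these ranges overlapped between cultures, nor did those of Rap1a to Rap1b, Rhoa to Rhoh, Rdx to Ezr, Dock10 to Dock11, Wasf2 to Was and Myl12a to Myl12b. The ratio of Tmsb4x to Tmsb10 ran from 1.00 to 1.61 and from 0.83 to 1.48 and overlapped, as did Ezr to Msn and Dock8 to Dock2.

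**Figure D3:**
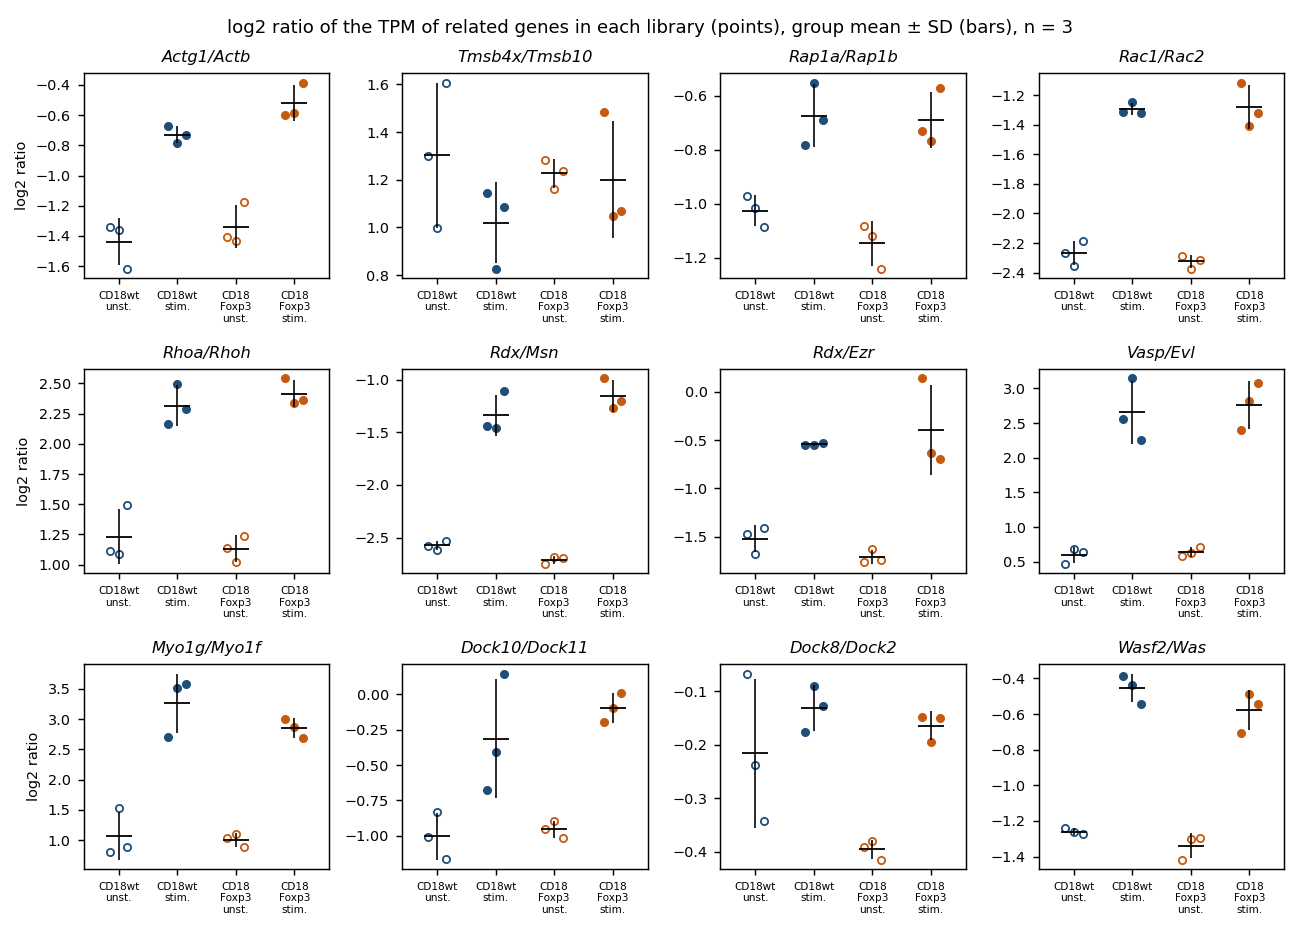
The log2 ratio of the TPM of related genes in each library (points) with the mean ± SD of each group of 3 (bars), for CD18wt (blue) and CD18Foxp3 Treg (orange), unstimulated (open) and stimulated (filled). The ranges of unstimulated and stimulated libraries do not overlap in 10 of the 12 panels, the exceptions being Tmsb4x/Tmsb10 and Dock8/Dock2.

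Reads that fall in introns gave a further readout of the same libraries, added after the exon results were seen. Of the 59 genes, 58 had enough intron reads to test. In CD18wt Treg, 14 were called lower and 0 higher, where 5.09% of 9492 genes were called lower and 2.71% higher. In CD18Foxp3 Treg, 29 were called lower and 0 higher, where 15.4% of 10260 genes were called lower and 15.0% higher. Of the 29 genes called lower on exon reads, intron reads were called lower for 11 in CD18wt and 20 in CD18Foxp3 Treg. Skap1 fell on both, with -2.07 and -2.09 on intron reads, and Rasgrp2 likewise, with -2.54 and -2.86. Other genes went the opposite way, since 6 of the 29 in CD18wt and 5 in CD18Foxp3 Treg had positive intron values, none of them called. Flna was at 1.48 and 0.66, Myo6 at 1.49 and 1.67 and Was at 2.25 and 1.23 on intron reads. Tmsb4x was at 0.59 and -0.22, and Coro1a at 0.80 and -0.01. Was held 12 and 93 intron reads in the unstimulated and stimulated CD18wt libraries together, and Myo6 held 13 and 45. In the CD18Foxp3 libraries Was held 29 and 98, and Myo6 held 17 and 78. Some genes fell on intron reads and were not called on exon reads: Cdc42 was at -1.79 and -2.18 on intron reads against -0.42 and -0.39 on exon reads, and Dock10 at -1.65 and -1.69 against -0.28 and -0.20. Vcl, the gene that rose, was not called on its intron reads, which numbered 29 and 69 in the unstimulated and stimulated CD18wt libraries together. The share of intron reads differed between libraries, from 3.32% in CD18wt unstimulated replicate 3 to 5.99%, and its part in these counts was not tested.

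Most calls on stimulation were shared by both genotypes. Of the 59 genes, 28 were called lower and 1 higher in both, where 12.9% of 11693 genes tested in both were called lower in both and 16.5% higher in both. A further 27 were called in neither, and 57 had the same sign. Over the 59 genes the log2 fold changes correlated with a Pearson coefficient of 0.968 and a Spearman coefficient of 0.954, across genes that are not independent replicates. The share with the same sign and the correlation over all genes tested were not computed, so neither value is particular to these genes. The test of the difference between the responses called 0 of 12636 genes (edgeR), 0.0% in either direction and none of the 59 among them. By comparison, DESeq2 called 1 gene, which was not among the 59, and 3.84% of all genes in edgeR had an unadjusted p under 0.05. The interaction estimates of the 59 genes ran from -0.84 for Vcl (SE 0.45, edgeR adjusted p = 0.987) to 0.31 for Tmsb4x (SE 0.25, edgeR adjusted p = 0.987), and that of Rasgrp2 was -0.63 (SE 0.22, edgeR adjusted p = 0.987).

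Between the genotypes, few calls were made. In unstimulated Treg, 1 gene, Myo6, was called higher in CD18Foxp3 cells and 0 lower, where 0.0507% of 11829 genes were called higher and 0.0845% lower. In stimulated Treg 0 of the 59 and 0.0% of 11930 genes were called, 4.89% of the genes having an unadjusted p under 0.05. DESeq2 called 22 genes there, none of them among the 59. The log2 differences of the 59 genes ran from -0.18 for Diaph1 to 0.92 for Vcl in unstimulated Treg, with a median of 0.02, and from -0.42 for Evl to 1.07 for Myo6 in stimulated Treg, with a median of -0.01.

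Myo6 was 1.81-fold higher in unstimulated CD18Foxp3 Treg (log2 fold change 0.86, SE 0.11, edgeR adjusted p = 0.00655), with 16.3 to 18.8 TPM against 8.34 to 10.6 TPM and no overlap. In stimulated Treg the difference was 1.07 (SE 0.36, edgeR adjusted p = 0.873), with 4.02 to 6.69 TPM against 1.25 to 3.74 TPM, again without overlap. The call in unstimulated Treg was kept in 1 of 6 fits with a library left out, that without CD18wt replicate 3, and the adjusted p ran from 0.0192 to 0.0518 in the other 5 fits, with log2 fold changes of 0.75 to 0.91. An exact permutation test of its TPM gave p = 0.1 in each culture, the smallest that 3 against 3 libraries allow.

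Without a call, some genes still separated the genotypes. In unstimulated Treg, TPM of all CD18Foxp3 libraries lay above all CD18wt libraries for 11 of the 59 genes and below for 3, where 8.74% and 6.9% of all genes did so. In stimulated Treg this held for 4 and 1, where 5.02% and 4.41% of all genes did so. The genes that separated in the same direction in both cultures were Myo6 and Actg1, higher in CD18Foxp3 Treg, and Stk4, lower. The share of all genes that did so in both cultures was not counted, so these genes are listed as a description. Actg1 differed by 0.20 (SE 0.10) and 0.21 (SE 0.15) on the log2 scale of counts. Stk4, whose product acts with RAPL to bring LFA-1 to the cell surface, was at 235, 227 and 246 TPM in CD18wt and 220, 225 and 220 TPM in CD18Foxp3 unstimulated Treg, and at 173, 153 and 157 TPM against 145, 148 and 132 TPM in stimulated Treg. On counts its log2 difference was -0.12 (SE 0.09) and -0.17 (SE 0.14), and neither was called. Rasgrp2 was higher in unstimulated CD18Foxp3 Treg by 0.39 (SE 0.08, edgeR adjusted p = 0.0798), with 33.4 to 35.8 TPM against 24.4 to 27.0 TPM, and in stimulated Treg the difference was -0.24 (SE 0.24). Itgb2, outside the 59 genes, was called lower in unstimulated Treg (-0.85, edgeR adjusted p = 0.00408), a call kept in 1 of 6 fits with a library left out. In stimulated Treg Itgb2 was not called (-0.94, edgeR adjusted p = 0.220). Itgal differed by -0.22 and -0.29, without a call in either culture. Vcl, with 44, 46 and 49 reads in unstimulated CD18Foxp3 against 10, 35 and 19 reads in unstimulated CD18wt libraries, differed by 0.92 (SE 0.48, edgeR adjusted p = 0.588).

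**Figure D4:**
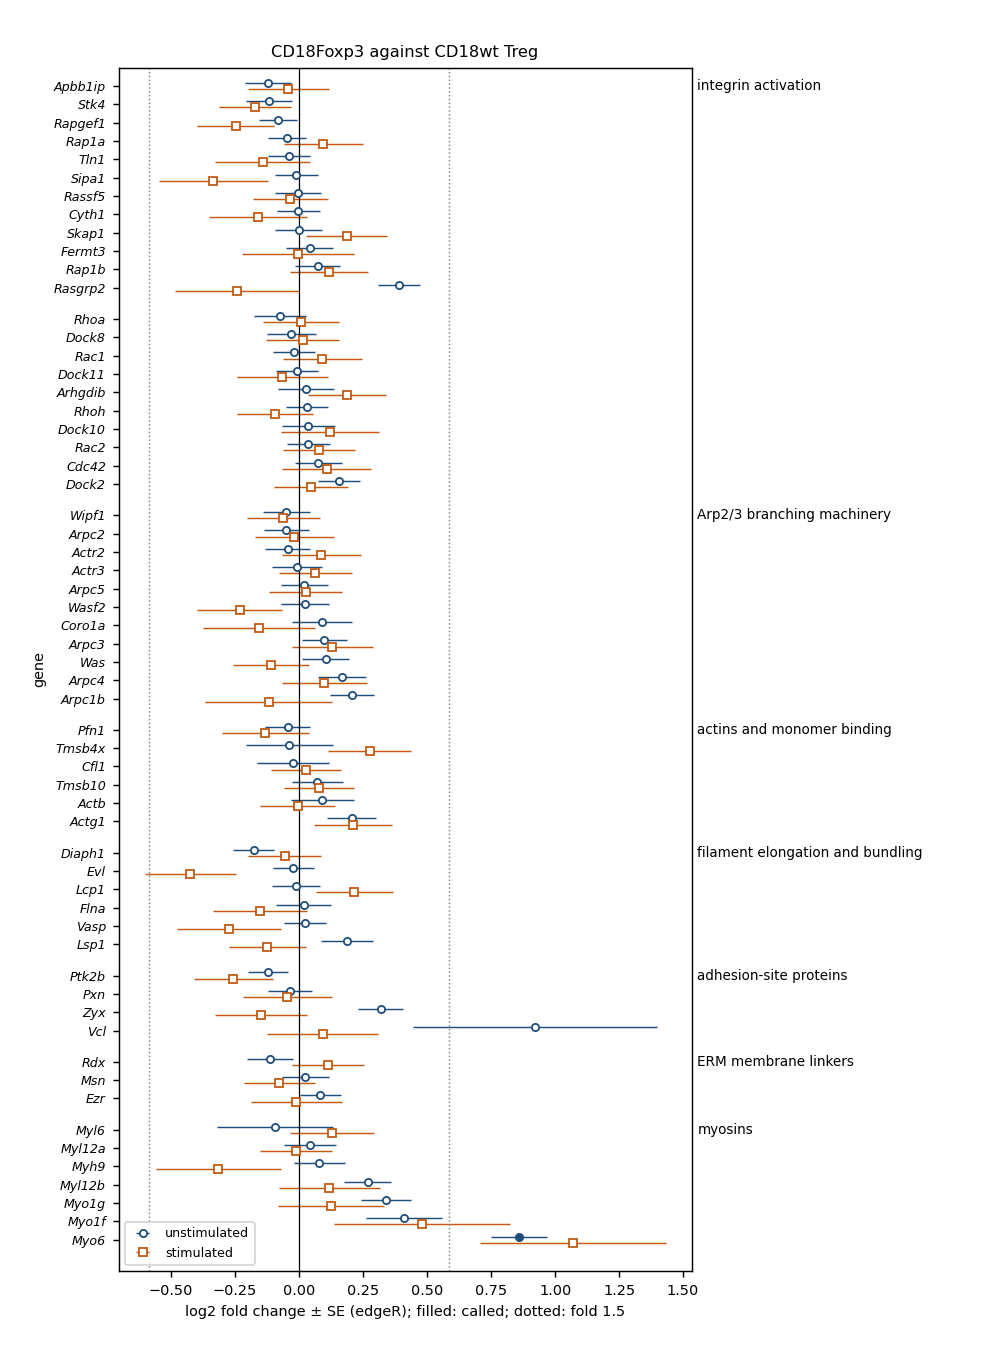
Difference between CD18Foxp3 and CD18wt Treg for the 59 genes, as log2 fold change ± SE from edgeR, in unstimulated (circles) and stimulated Treg (squares), grouped by role with labels for 7 of the 8 groups, with filled symbols for called genes and dotted lines at a fold change of 1.5. Nearly all symbols lie between the dotted lines, and Myo6, at 0.86 and 1.07, is the only filled one.

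Other genes of the same pathways, from lists chosen by function with earlier results of these data known, were tested in the same fits. Of 28 other integrin activation genes tested, 15 were called lower in each genotype on stimulation, with Rassf2 at -1.86 and -1.80, and 1 and 2 were called higher, among them Mob1b, at 0.99 in CD18wt Treg. The other actin turnover and bundling genes were evenly divided, with 7 higher and 7 lower of 31 tested in each genotype. Among these were Gmfg, encoding a debranching factor, at -2.31 and -1.84, and Dstn, encoding the cofilin relative destrin, at 1.28 and 1.29. Of 10 other myosins tested, 5 were called higher and 1 lower in CD18wt Treg, and 3 higher and 1 lower in CD18Foxp3 Treg. Myo10, encoding a filopodial motor, was at 3.01 and 3.34, and Myo18a was at -1.22 and -1.13. The other nucleators and their activators included Diaph3, a formin gene, at 2.14 and 2.34, and Abi3, a WAVE complex gene, at -1.69 and -1.81, with 2 higher and 4 lower of 18 tested in each genotype. Between genotypes none of these lists held a called gene.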

How the data were processed

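Poly(A) RNA of sorted splenic Treg was sequenced as single 59-base reads after 15 cycles of PCR, with 3 libraries per group. The authors mapped the reads to GRCm38 and assigned them to genes in CLC Genomics Workbench with default settings. The deposited tables hold, per gene, raw counts of total and unique exon reads and of intron reads, and TPM values written with decimal commas. The genes and the lists of other pathway and marker genes were chosen with earlier results of these data known. Genes were grouped by role, and all were described, those with the largest changes by library.

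Total exon read counts were fitted with edgeR 4.0.16 (quasi-likelihood, robust, TMM normalisation, filterByExpr with a minimum count of 10) in R 4.3.3, with the 2 groups compared in each fit and all 4 groups for the difference between responses. P values were adjusted over all genes tested by the Benjamini-Hochberg method. They set differences between groups against the spread between these libraries, which were not paired in the main fits. The tests were checked on simulated data. The alternatives were DESeq2 1.42.0, limma 3.58.1 on logged TPM with a pseudocount of 1 or 0.1, other scaling, filters and thresholds, uniquely placed reads, a replicate block, all 12 libraries in 1 fit, each library left out and, chosen after seeing the data, intron reads. TPM are levels per length, and fold changes come from counts unless stated. Exon overlaps were taken from GENCODE M21 and promoter windows from RefSeq. The 9 genes without a window are not shown in the motif count.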

Additional observations from a re-analysis of the deposited data

How the results depend on the processing

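The calls on stimulation depended mainly on the scale. In CD18wt Treg 30 of the 59 genes were called, 19 with limma on log2(TPM + 1), 18 on log2(TPM + 0.1) and 14 with intron reads, the last chosen after seeing the data. In CD18Foxp3 Treg the number was 31, and 49 at an adjusted p of 0.05 with any fold. Leaving out single libraries gave 29 to 32 calls in CD18wt and 28 to 33 in CD18Foxp3 Treg. On TPM the sign turned to higher for 15 of the 59 genes in CD18wt and 13 in CD18Foxp3 Treg, among them Actb, at 0.160 and 0.0249 on both TPM scales, and the cause was not tested. For unstimulated Treg the genotype comparison called 1 gene, Myo6, and 0 with limma on either TPM scale, 0 with all 12 libraries in 1 fit and 0 to 1 with a library left out. For stimulated Treg it called 0, and 1 (Myo6, edgeR adjusted p = 0.00968) without the filter on low counts. Over all genes, the unstimulated genotype comparison called 16 genes, 86 with DESeq2, 134 without the filter, 1 and 5 with limma, 41 with the replicate block, 0 with all 12 libraries and 0 to 44 with a library left out. In stimulated Treg it called 0, 22 with DESeq2, 61 without the filter and 1 with the block. Of the other values of single genes, 675 kept their direction and side of the threshold, 34 lost the call and 15 gained it.

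Same-numbered libraries are not stated to come from the same mouse, and in each comparison at least 1 of the 3 same-numbered pairs had a correlation of deviations under 0.1. Between cultures of CD18Foxp3 Treg these were 0.135, 0.0697 and 0.147, and every library correlated best with its own number. With the replicate block, 29 genes were called in CD18wt and 34 in CD18Foxp3 Treg on stimulation, 1 and 0 between genotypes in unstimulated and stimulated Treg, and 0 for the difference between responses. Depth limits the genes with few reads, Vcl foremost.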
